A study of Schizosaccharomyces pombe with 2 samples.

Results

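Annotated introns of protein-coding genes that long-read transcript models of fission yeast (Schizosaccharomyces pombe) kept unspliced were the subject. An intron counted as retained when at least 1 model on its strand held it, with 10 nt on each side, inside 1 exon block. By this rule 3847 of 5186 annotated introns on chromosomes I, II and III were retained, and they lay in 2100 of the 2443 protein-coding genes that have an intron. The members were thus selected on the measured models themselves, so the retention values below are a description. A further 1280 introns were never retained but were spliced by at least 1 model, with both ends within 2 nt of the annotated ends. The last 59 had neither a retaining nor a splicing model. Retaining plus splicing models are called informative models here, and the retaining share is the percentage of them that retain the intron.

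Fission yeast introns are short, and the spliceosome finds them by a 5′ splice site that starts with GT, a branch point whose adenosine attacks that site, and a 3′ splice site that ends in AG. Retention of a whole intron is the most common form of alternative splicing in this yeast. A retained intron in the coding sequence usually brings in a stop codon or shifts the reading frame, and such RNAs are often removed by the nuclear exosome or by nonsense-mediated decay.

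The models came from 2 PacBio Iso-Seq libraries, 1 per condition, with no replicates. The pool held h+ ade6-M216 ura4-D18 leu1-32 cells and cells of this genotype that also carried hrp1del::kanMX and hrp3del, which remove the CHD-family nucleosome remodelers Hrp1 and Hrp3. Some cells of the pool were left untreated, some received caffeine at 14 mM and some clotrimazole, an azole antifungal, at 200 ng/ml. The WT library was made from untreated h+ ade6-M216 ura4-D18 leu1-32 cells. All cells therefore carried the same 3 auxotrophic alleles, and all were grown at 32 °C in rich YES medium. The deposited models do not say which cells of the pool a model came from, so genotype, treatment, depth and sequencing run cannot be told apart between the libraries. The labels give both libraries the same batch number, while the series text describes separate runs.

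The pool file held 69996 models and the WT file 26120. A model is 1 collapsed isoform and the files give no reads per model, so shares here weigh isoforms, not molecules. Of the distinct introns spliced by the models, 89.7% in the pool and 97.2% in WT began with GT and ended in AG. Both introns of hrp3 were spliced by 3 pool models and 4 WT models and retained by none, and since WT cells are part of the pool this checks no label.

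The introns printed here are those that the following results turn on, read 5′ to 3′ on the transcribed strand of ASM294v3. The 4 introns of mug161, which encodes a CwfJ-family splicing factor, lie on the plus strand at chrI:634972-635068, chrI:635236-635348, chrI:636177-636233 and chrI:636315-636384 and show the whole range within 1 gene. Intron 1 of not11 (chrI:1578446-1578491, plus strand) and the only introns of met6 (chrII:4089319-4089360, minus strand) and etp1 (chrI:5037447-5037491, minus strand) were among those with most retaining models. Intron 2 of bqt4 (chrII:2840967-2841005, plus strand) and the only intron of rsn1 (chrII:563929-563964, minus strand) keep the reading frame open, as does that of etp1. Intron 2 of rec6 (chrII:1649728-1649814, minus strand) had no model with the annotated junction, and intron 1 of sec6102 (chrII:2382475-2382525, plus strand) was the never-retained intron with most splicing models. Capitals mark the first 6 bases, the last branch motif (CTNAN with A or G as its first N and C or T as its second, searched on the transcribed strand only) and the last 3 bases. All these introns lie in coding sequence.
mug161 intron 1: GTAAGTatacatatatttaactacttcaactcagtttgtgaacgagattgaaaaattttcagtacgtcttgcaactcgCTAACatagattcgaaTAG
mug161 intron 2: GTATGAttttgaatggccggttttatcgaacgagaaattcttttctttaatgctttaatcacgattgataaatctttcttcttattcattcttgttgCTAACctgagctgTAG
mug161 intron 3: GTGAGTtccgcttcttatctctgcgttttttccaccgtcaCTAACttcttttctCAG
mug161 intron 4: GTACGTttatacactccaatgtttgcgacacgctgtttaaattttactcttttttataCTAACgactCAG
not11 intron 1: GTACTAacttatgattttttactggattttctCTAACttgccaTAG
met6 intron 1: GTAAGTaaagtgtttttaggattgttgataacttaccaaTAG
etp1 intron 1: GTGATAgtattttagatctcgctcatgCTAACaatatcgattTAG
bqt4 intron 2: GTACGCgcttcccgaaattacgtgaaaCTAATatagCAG
rsn1 intron 1: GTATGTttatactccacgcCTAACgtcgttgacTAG
rec6 intron 2: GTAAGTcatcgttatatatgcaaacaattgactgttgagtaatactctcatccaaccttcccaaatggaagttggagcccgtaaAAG
sec6102 intron 1: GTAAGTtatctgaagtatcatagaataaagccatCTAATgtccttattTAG

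GTAAGT opened 27.7% and GTATGT 19.9% of all 5186 introns, and a branch motif was found in 76.3% of them. A match is a description of the letters and not a mapped branch point. Intron 1 of sec6102 and intron 1 of mug161, both never retained, opened with GTAAGT, but so did the often retained intron of met6. Less common were GTGAGT at intron 3 of mug161, GTACTA at intron 1 of not11 and GTGATA at the intron of etp1.

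Most retained introns were retained by few models. Exactly 1 retaining model was found for 1004 introns (26.1% of the retained), and 291 introns had at least 10. The median was 3 retaining models and the highest count was 45, for intron 3 of mug161. At the edge of the rule, the 1004 introns with 1 retaining model had a median of 13 informative models, and 959 of these retaining models were in the pool and 45 in WT. The 1280 introns with none had a median of 11. Among 4708 introns with at least 5 informative models the median retaining share was 13.6%, 1025 introns were at 0, and 151 (3.21%) were retained by over 50% of their informative models. For most introns splicing was thus the common state among the models and retention the minor one.

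In the pool 3799 of 5122 informative introns were retained (74.2%, exact 95% interval 72.9 to 75.4), and in WT 1614 of 4635 (34.8%, 33.4 to 36.2). Together 75.0% of 5127 informative introns were retained in at least 1 library. Counted over models, the pool had 12765 retaining events among 65760 informative ones (19.4%, 19.1 to 19.7), and WT had 2856 among 25166 (11.3%, 10.96 to 11.7). Counting only retaining models that spliced another intron of the gene, the shares were 12.4% in the pool (12.2 to 12.7) and 6.65% in WT (6.34 to 6.97). These intervals cover counting error only, as if introns and events were independent, and carry no test between the conditions. A model that spans several introns gives several events, so the intervals over events are likely too narrow. Retention was seen in both libraries for 1566 introns, in the pool alone for 2233 and in WT alone for 48. Of the 2233, 254 had no informative WT model at all.

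The libraries were set side by side on the 2423 introns with at least 5 informative models in each. The retaining share was higher in the pool for 1530 introns, lower in the pool for 421 and equal for 472, of which 431 were at 0 in both. Its median was 15.4% in the pool and 0% in WT, and the median difference, pool minus WT, was 5.56 percentage points. Over all introns the pool gave 65760 informative events and WT 25166. A share from few models cannot take a small value above 0, so these counts and medians compare unlike depths. Introns that WT retained were also the more retained ones in the pool. Their median pool share was 26.7% (quartiles 17.4 to 36.4, 1156 introns), against 7.14% (0 to 14.3) for the 1267 introns that WT did not retain. Across the 2423 introns the shares had Pearson r = 0.750 and Spearman rho = 0.706, which describes introns that share libraries and genes. The pool also held cells of the WT genotype, so the libraries are not of wholly different cells.

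**Figure D1:**
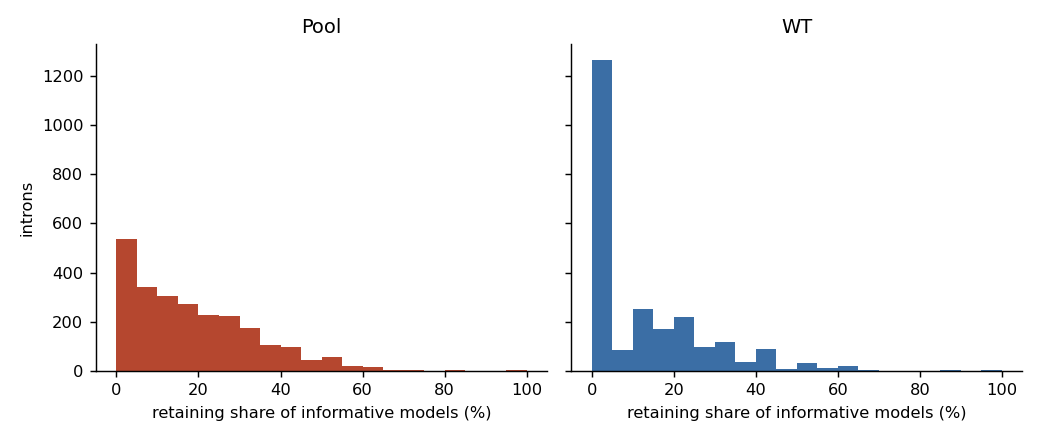
Histograms of the retaining share of informative models (percent, bins of 5 points) for the 2423 introns with at least 5 informative models in each library, pool left and WT right. The pool bars spread out from 0 with a median of 15.4%, while most of the WT bars stand in the lowest bin and the WT median is 0%. WT has fewer informative events over all introns, and a share from few models cannot take a small value above 0.

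Retaining models were mostly otherwise spliced. In the pool 9485 models retained an intron, and 6866 of them spanned several annotated introns of the gene. Of these, 5774 (84.1%) spliced at least 1 other intron and 1018 (14.8%) retained every intron they spanned. In WT the corresponding counts were 2305 and 1519 models, with 1315 (86.6%) and 192 (12.6%). A single intron was retained by 65.7% of the multi-intron pool models and by 73.1% of those in WT. A further 2619 pool and 786 WT retaining models spanned only 1 annotated intron, so that they had no other to splice.

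Counted over events, retaining models held the ends of the coding sequence about as often as splicing ones, but their median span was shorter. A model counts here once for each intron it retains or splices. Spans were not compared within a gene, so they do not show that retaining models are shortened. Both the start and the stop codon lay within 85.2% of retaining and 84.8% of splicing events in the pool, and within 90.4% and 90.3% in WT. The median genomic span was 1716 nt for retaining and 1946 nt for splicing events in the pool, and 1916 and 2047 nt in WT.

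The introns with most retaining models, named with 1 intron per gene, lay in genes for many different proteins. Intron 3 of 4 of mug161 (57 nt) was retained by 29 of 36 informative models in the pool (80.6%, interval 64.0 to 91.8) and by 16 of 18 in WT (88.9%, 65.3 to 98.6). Most of its informative models thus retained it in both libraries. Intron 1 of 3 of not11, which encodes a subunit of the Ccr4-Not deadenylase complex, was retained by 19 of 28 models in the pool (67.9%, 47.6 to 84.1) and 12 of 14 in WT (85.7%, 57.2 to 98.2). Its introns 2 and 3 were each retained by 3 of 26 pool models and 1 of 12 WT models, so retention was concentrated on the first.

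Intron 2 of 5 of ckn1, annotated as a DNA repair protein of the ERCC8 family, was retained by 26 of 36 models in the pool and 5 of 10 in WT. The only intron of met6, which encodes the homoserine O-acetyltransferase of methionine synthesis, was retained by 17 of 31 and 11 of 18. Intron 2 of 3 of bet3, a subunit of the TRAPP vesicle tethering complex, was retained by 23 of 41 in the pool and 4 of 9 in WT. In each of these the libraries' intervals overlapped widely, which is a description and no test between the libraries. Intron 1 of 3 of png3, in the 5′ UTR, was retained by 23 of 33 pool models and 6 of 8 WT models.

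Of the 10 introns with most retaining models, counting 1 intron per gene, 3 lay in 3′ UTRs. In all, 52 of 5127 informative introns lay there. Intron 7 of 7 of osh41, an oxysterol-binding protein, was retained by 31 of 48 pool models and 9 of 17 WT models. Intron 6 of the same gene, in the coding sequence, was retained by 2 of 59 pool models and by 0 of 19 in WT. Intron 3 of 3 of ccs1, the copper chaperone of superoxide dismutase, was retained by 20 of 21 in the pool and 6 of 6 in WT, while its introns 1 and 2 were retained by 5 of 32 and 4 of 32 in the pool and by 1 of 10 each in WT. The only intron of jac1, a DnaJ-domain protein, was retained by 18 of 31 and 8 of 13.

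The introns that stood next in WT were of the same kind. The intron of etp1, a mitochondrial protein that joins a monooxygenase to a ferredoxin, was retained by 14 of 23 models in the pool and 9 of 13 in WT. Intron 1 of 2 of mmp1, an endopeptidase catalytic subunit, was retained by 16 of 32 and 9 of 15. Intron 2 of 2 of mba1, a respiratory complex assembly protein, was retained by 14 of 25 and 8 of 12. Intron 1 of 4 of osh6, another oxysterol-binding protein, was retained by 18 of 43 pool models and 8 of 19 WT models. In all 4 the exact intervals of the pool and WT shares overlapped, which is no test between the libraries.

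**Figure D2:**
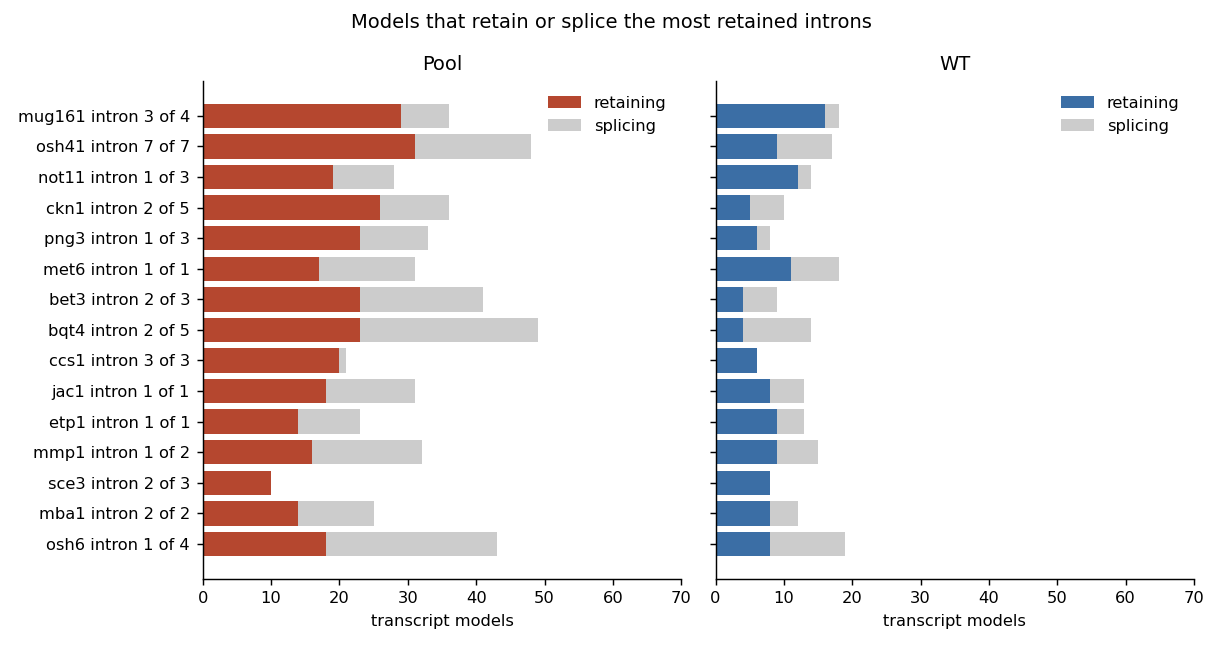
Number of transcript models that retain (coloured) or splice (grey) each of the 15 introns with most retaining models, 10 over both libraries and then 5 more in WT, pool left and WT right. The intron of mug161 has 29 retaining and 7 splicing models in the pool and 16 and 2 in WT. That of sce3 has no model with the annotated junction in either library, and its 16 models with another junction are not drawn.

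The share varied among introns of 1 gene, mostly by little and in a few genes by much. In 1039 genes with at least 2 introns of at least 10 informative models each, the median range of the share within the gene was 14.3 percentage points (quartiles 7.48 to 26.2). In 9 of these genes, listed after their values were seen, 1 intron was at 0 and another over 50%. In mug161, introns 1 and 2 were spliced by 35 and 36 pool models and by 17 and 18 WT models and retained by none, while intron 4 was retained by 14 of 36 in the pool and 4 of 18 in WT. All 4 introns of mug161 held the branch motif CTAAC. Their 5′ splice site scores, in bits, were 7.49, 9.34, 5.40 and 9.23 from intron 1 to intron 4, so the most retained intron had the lowest score. Its GC content was 43.9%, against 32.0, 32.7 and 34.3% for the others.

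In alp41, a small GTPase of tubulin folding, introns 1 to 3 were retained by no model, introns 4 and 5 by 1 of 18 pool models each, and intron 6, in the 3′ UTR, by 10 of 17 in the pool and 2 of 6 in WT. In rtf1, annotated as an RNA polymerase I termination factor, intron 2 was retained by 10 of 18 and 3 of 6, and introns 3, 5 and 6 by none. The most retained intron was thus the third in mug161, the last in alp41 and the second in rtf1.

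**Figure D3:**
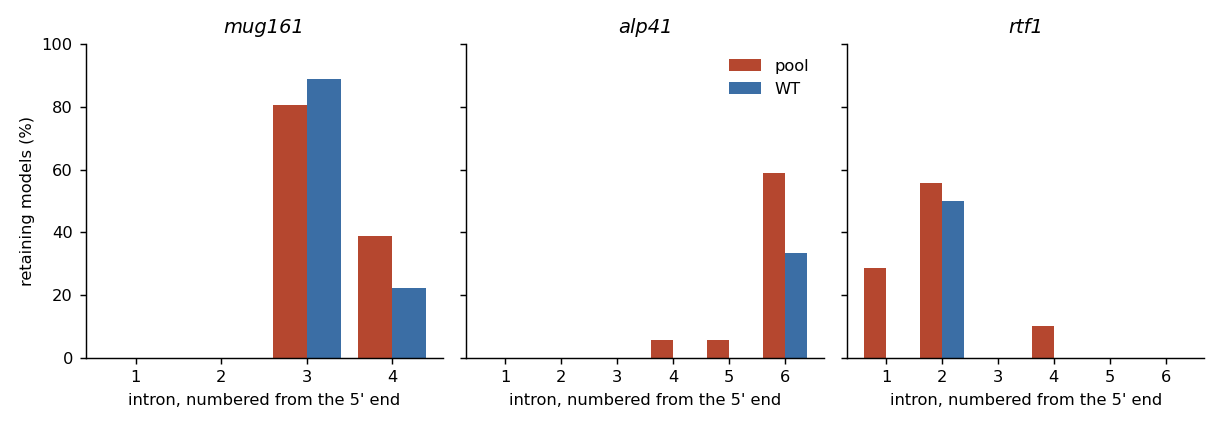
Retaining share of informative models (percent) for each intron of mug161, alp41 and rtf1, numbered from the 5′ end, pool bars left of WT bars. Each gene has 1 intron above 50% in the pool beside introns at 0.

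Which introns were retained was then related to properties the rule did not use, in 1 logistic fit over all 5127 informative introns with errors clustered by gene and the number of informative models as a term. Of 10 properties, 8 passed at an adjusted p of 0.05. Retained introns were longer (median 57 nt, against 52.5 nt for never-retained introns). Each doubling of length multiplied the odds of retention by 1.52 (95% interval 1.36 to 1.70, adjusted p = 1.14e-13, n = 5127 introns). The share of introns retained was 69.7% at 40 to 49 nt and 87.6% at 200 nt or more, and over models the share was 17.3% and 23.7% in the pool and 9.86% and 16.7% in WT. The shortest class, 30 to 39 nt, did not follow this order, with 74.9% of 307 introns retained. The number of models moved strongly with the call, since 39.1% of introns with 1 to 4 informative models and 89.0% of those with 30 or more were retained (odds ratio 2.06 per doubling, 1.90 to 2.23). Retaining models are part of this number, so its odds ratio is partly fixed by the call itself. Within each of 6 classes of model number the retained introns had the longer median.

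**Figure D4:**
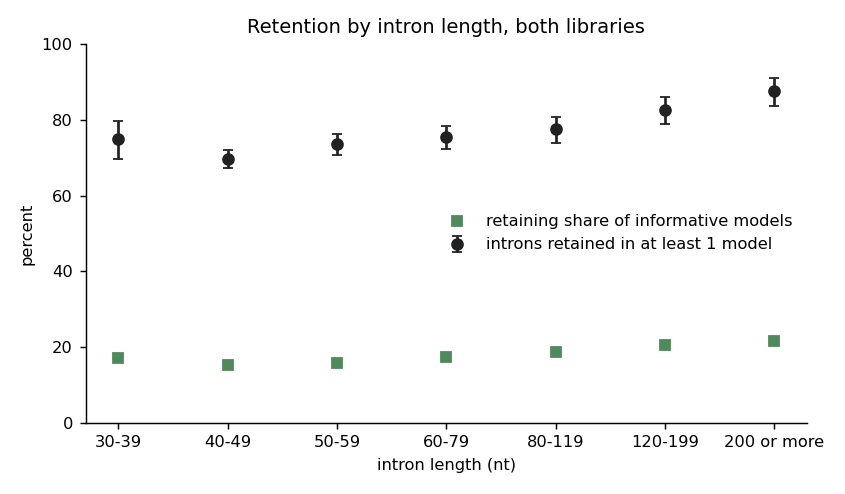
Percent of informative introns retained in at least 1 model (circles, exact 95% intervals) and percent of informative models that retain the intron (squares), by intron length in nt, both libraries together. Introns of 200 nt or more stand at 87.6% and those of 40 to 49 nt at 69.7%.

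The longest retained introns were chosen after their values were seen and serve as examples. The 855-nt intron 1 of atf1, in the 5′ UTR of this stress-response transcription factor gene, was retained by 1 of 13 pool models and 0 of 5 WT models. The 837-nt intron 1 of elo1, a fatty acid elongase, was retained by 6 of 28 in the pool and 4 of 22 in WT. The 817-nt intron 3 of gnd1, which encodes phosphogluconate dehydrogenase, was retained by 6 of 34 and 3 of 19. The 756-nt intron 2 of prr1, another stress-response transcription factor, was retained by 7 of 18 and 3 of 10.

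Retention also varied with place in the gene. Of introns that were the only one of their gene, 80.4% were retained, as were 77.9% of last, 74.5% of first and 68.5% of internal introns. Against internal introns the odds ratios were 2.91 for only introns (2.30 to 3.68, adjusted p = 3.69e-18), 2.21 for last introns (1.82 to 2.69, 5.29e-15) and 1.45 for first introns (1.20 to 1.75, adjusted p = 0.000130), with n = 5127 introns. These sizes depended on the fit: only introns had 1.91 without the term for the number of models and 1.39 in a binomial fit of retaining models, in which last introns had 1.21, all still past the threshold. The call for first introns was lost when only models that spliced another intron of the gene counted as retaining (odds ratio 1.08, adjusted p = 0.435, n = 4019 introns of genes with several), while last introns kept an odds ratio of 1.45 (adjusted p = 9.18e-05). Over models, only introns were retained in 21.8% of informative events in the pool and 15.3% in WT, and internal introns in 17.6% and 9.41%.

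Retained introns had splice signals somewhat further from the common form, with wide overlap between the groups. The median 5′ score was 8.52 in retained and 8.72 in never-retained introns, with an SD of 2.34 over all introns. The median 3′ score was 5.45 and 5.69, with an SD of 1.49. The odds ratio per SD was 0.702 for the 5′ splice site score (0.646 to 0.763, adjusted p = 5.92e-16) and 0.819 for the 3′ score (0.759 to 0.884, adjusted p = 4.55e-07), and an intron with a branch motif had 0.523 times the odds of one without (0.438 to 0.623, adjusted p = 1.00e-12, n = 5127). Introns that opened with GTAAGT or GTATGT were retained in 72.0% and 72.4% of cases, against 79.1% for 1599 introns with GT but none of the 6 most common opening hexamers. Of the 9 informative introns without GT and AG at their ends, 8 were retained (88.9%, exact interval 51.8 to 99.7). The 75.0% of all informative introns lies within that interval. By branch motif, 72.2% of introns with CTAAC, 72.9% with CTAAT, 83.7% with CTGAC and 90.1% with CTGAT were retained, and 78.7% of those with none. CTAAC and CTAAT introns thus stood below those with no motif, and CTGAC and CTGAT introns above them. Over models, CTGAT introns were retained in 27.8% of events in the pool and 18.1% in WT, and CTAAC introns in 17.2% and 10.5%. The 4 motifs were not tested against each other.

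GC content was higher in retained introns (median 29.2%) than in never-retained ones (28.3%), and 10 percentage points more multiplied the odds by 1.62 (1.41 to 1.86, adjusted p = 1.20e-11, n = 5127). The 8 properties that passed kept their direction and passed when the pool and WT were fitted apart. In WT alone, for example, the odds ratio was 1.54 per doubling of length, 0.718 per SD of the 5′ score and 0.611 for a branch motif. The separate fits are no independent repeat, since they use the same introns and the pool held cells of the WT genotype. Of the 3847 retained introns 3799 were retained in the pool, and of the 1614 retained in WT 1566 were retained in both. The test of a difference between the libraries was not made, as each is 1 sample.

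**Figure D5:**
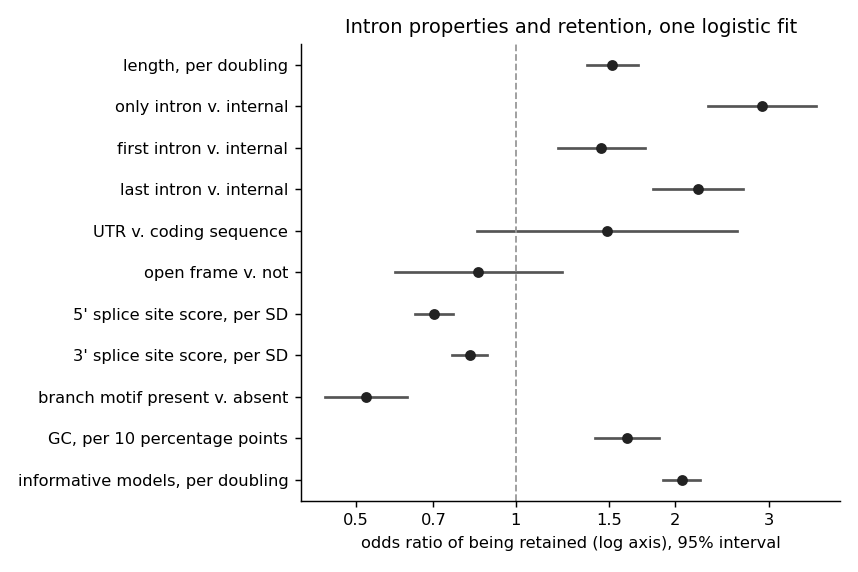
Odds ratios (points, log axis) of being retained in at least 1 model with 95% intervals (lines) for 10 intron properties and the number of informative models, from 1 logistic fit over 5127 introns. Length, place in the gene, GC content and model number lie right of 1, the splice site scores and the branch motif left of it, and the intervals of UTR and open frame cross 1.

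UTR introns and frame did not pass in this fit. Introns in UTRs had an odds ratio of 1.49 against coding introns (0.845 to 2.62, adjusted p = 0.187, n = 5127). The 5′ and 3′ UTRs differed in their values: 86.5% of 104 introns in 5′ UTRs and 82.7% of 52 in 3′ UTRs were retained, against 74.7% of 4971 in coding sequence, but over models the share in 3′ UTRs was 46.8% in the pool and 40.3% in WT, against 19.1% and 10.96% in coding sequence. Of 32 introns in 3′ UTRs with at least 5 informative models, 14 were over 50% (43.8%, 26.4 to 62.3), against 3.21% of all such introns. Fits with 3′ UTR introns as a term of their own, added after seeing the data, gave 2.50 for any retention (0.975 to 6.40, adjusted p = 0.0626) and 2.88 for the number of retaining models (1.87 to 4.45, adjusted p = 2.54e-06, n = 5127). The same fits gave 1.01 and 1.10 for 5′ UTR introns, with adjusted p = 0.972 and 0.350 (n = 5127).

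Retention of most coding introns would break the reading frame. An in-frame stop codon lay within 4278 of 4971 informative coding introns, 534 shifted the frame without one, and 159 were open, with a length divisible by 3 and no stop. Of these, 75.3%, 70.8% and 71.7% were retained, and the odds ratio for an open frame was 0.851 (0.591 to 1.22, adjusted p = 0.385, n = 5127 introns). With at least 2 retaining models required it was 0.608 (0.427 to 0.868, adjusted p = 0.00674, n = 5127). Over models, open introns were retained in 18.5% of events in the pool and 10.96% in WT, and introns with a stop in 19.4% and 11.4%.

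Some open introns were nonetheless retained by a large part of their models. Besides etp1, intron 2 of bqt4, an inner nuclear membrane protein of the meiotic telomere bouquet, was retained by 23 of 49 models in the pool and 4 of 14 in WT. The 36-nt intron 1 of mba1 was retained by 15 of 34 and 5 of 16. The 45-nt intron of SPAC9G1.07, a protein specific to Schizosaccharomyces, was retained by 12 of 19 and 7 of 10. The 36-nt intron of rsn1, annotated as a calcium transporter, was retained by all 11 pool models and all 7 WT models. Translated through, each of these would add whole codons to the annotated protein.

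The annotated junction was used by no model for 76 retained introns. Of these, 34 had models with another junction across the intron. At intron 2 of rec6, a meiotic recombination gene, 20 pool and 2 WT models retained the annotated 87 nt, and 23 models spliced a 39-nt intron with the same 5′ end whose 3′ end lay 48 nt earlier. At intron 3 of mtl16, a methyltransferase gene, 17 pool and 2 WT models retained the annotated 46 nt, and 24 models spliced a 135-nt intron with the same 3′ end that began 89 nt further 5′. At intron 2 of sce3, a translation initiation factor gene, 10 pool and 8 WT models retained the annotated 41 nt, and 16 spliced an 82-nt intron that began 41 nt further 5′. In these 3 genes the models carried junctions other than the annotated ones. Junctions up to 100 nt apart were merged when the models were collapsed, so these counts may pool nearby junctions.

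The other 42 had no junction of any kind across them, and 15 of these had at least 5 retaining models. Of the 42, 37 lay in coding sequence and 4 of these were open (10.8%, exact interval 3.03 to 25.4), beside 3.20% of all informative coding introns, which lies within the interval. The 15, singled out after their values were seen, all lay in coding sequence and 3 were open (rsn1, SPCC569.03 and intron 2 of mug184). Intron 6 of 6 of ric8, a synembryn-like protein, holds a stop and was retained by all 13 pool and all 3 WT models. The only intron of SPCC569.03 was retained by 12 and 4 models, and intron 2 of mug184 by 9 and 4.

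Among the 2423 introns with at least 5 informative models in each library, those with the largest difference in share rested on few WT models. Intron 2 of 3 of lsm2, a 352-nt intron in the gene of an Lsm protein of the U6 snRNP, was retained by 12 of 22 models in the pool (54.5%, interval 32.2 to 75.6) and 0 of 6 in WT (0 to 45.9). Intron 5 of 9 of mvp1, a sorting nexin, was retained by 13 of 25 in the pool (52.0%, 31.3 to 72.2) and 0 of 5 in WT (0 to 52.2). Intron 4 of 4 of ypt1, a Rab-family GTPase of the secretory pathway, was retained by 11 of 24 (45.8%, 25.6 to 67.2) and 0 of 6 (0 to 45.9). Intron 8 of 15 of trt1, the telomerase reverse transcriptase, was retained by 4 of 8 and 0 of 5. Another 10 models, 8 in the pool and 2 in WT, spliced it 3 nt short of the annotated 3′ end. They fell outside the tolerance of 2 nt and were left out of these shares, on which its place here rests. Intron 1 of SPCC132.03, in the 5′ UTR of an uncharacterized gene, was retained by 9 of 13 and 1 of 5. The intervals of the libraries overlapped for each of these 5 introns. They treat models as independent counts, and their overlap is no test between the libraries. The introns were also picked for their large differences.

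In the other direction, among the same 2423 introns, the pool was lower. Intron 2 of 3 of pku80, the Ku protein of end joining and telomeres, was retained by 4 of 15 models in the pool and 3 of 5 in WT. Intron 2 of 5 of wtf19, a meiotic drive antidote of a repeated gene family whose reads may be shared among copies, was retained by 2 of 10 and 3 of 6. Intron 3 of 4 of taf5, a subunit of the general transcription factor TFIID, was retained by 4 of 19 and 5 of 10. Intron 4 of 7 of kap111, a karyopherin, was retained by 0 of 16 and 2 of 7, and intron 1 of SPCC576.06c, a tyrosine tRNA ligase, by 2 of 9 and 3 of 6. Here too the intervals overlapped in every case, which again is no test between the libraries.

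Genes of the splicing machinery were described as a list, with no test. Of 132 informative introns in this list, 81 (61.4%) were retained, beside 75.0% of all informative introns, with a median of 12 informative models per intron beside 16. Over models the share was 13.9% in the pool and 5.10% in WT, beside 19.4% and 11.3% for all introns. Intron 1 of 2 of uap2, a U2 snRNP-associated protein, was retained by 12 of 19 pool models and 6 of 9 WT models. Intron 3 of 4 of lsm3, another Lsm protein of the U6 snRNP, was retained by 10 of 17 and 1 of 3. Intron 7 of 9 of srp2, an RNA-binding protein of the SR family, was never retained in 37 pool and 15 WT models.

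Ribosomal protein genes had 58 of 91 informative introns retained (63.7%), beside 75.0% of all, with a median of 7 informative models beside 16. Of all introns with 5 to 9 informative models, 66.8% were retained. Over models the share was 22.7% in the pool (19.3 to 26.3) and 14.6% in WT (9.52 to 21.2), beside 19.4% and 11.3% for all introns. Intron 1 of rps2202, in the 5′ UTR of a gene for ribosomal protein uS8, was retained by 8 of 16 and 2 of 5, and intron 2 of rps13 by 7 of 13 and 2 of 4. Many ribosomal protein genes of this yeast have a near-identical copy, so the reads of rps2202 may be split. The symbol rule of the list also took in rpp40, an RNase P subunit, whose intron 3 was retained by 6 of 13 and 2 of 5.

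Genes with meiotic names had 72 of 141 informative introns retained (51.1%), beside 75.0% of all. The median intron had only 4 informative models beside 16, and 39.1% of all introns with 1 to 4 were retained. Over models the share was 27.3% in the pool and 19.5% in WT, beside 19.4% and 11.3% for all introns. Introns 3 and 4 of mug161 gave 29 and 14 of the 267 retaining events in the pool, and intron 2 of rec6 gave 20. Several genes of this list are known for introns that are spliced only in meiosis, and the cells here were in vegetative growth. All 4 introns of crs1, a meiotic cyclin gene, were retained by both of its 2 pool models and spliced by none, with no WT model. By contrast the models of mes1, a meiotic regulator, spliced its intron in 5 of 5 pool and 2 of 2 WT cases. The intron of rem1, another meiotic cyclin gene, was spliced by its 1 pool model, as were both introns of spo4, a meiotic kinase gene. The introns of spn5, a meiotic septin gene, were spliced by 1 and 2 pool models, and the intron of the septin gene spn6 was retained by 1 of 11 pool models and 0 of 1 in WT. At these counts the values give no order among the genes.

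The never-retained introns with most splicing models, chosen after their values were seen, came from some of the same genes. Intron 1 of 5 of sec6102, a Sec61-like translocon subunit, was spliced by all 46 pool and all 20 WT models, while its intron 2 was retained by 14 of 46 and 3 of 20. Intron 1 of spo14, in the 5′ UTR of the gene of a GDP/GTP exchange factor, was spliced by all 36 and 18. Among 1280 never-retained introns only those with many models carry weight: 0 of 66 models, as in sec6102, bounds the share far more tightly than 0 of 11, the median.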

How the data were processed

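The study's authors clustered PacBio HiFi reads with Iso-Seq4, mapped them with minimap2 and collapsed them with TAMA Collapse, which merges junctions and ends within 100 nt, so close alternative junctions can be merged. Each library was deposited as exon blocks of collapsed models (other values, coordinates). The deposited score is 40 on every model and was not used. The submitters' processing notes name ASM294v2, and ASM294v3 (RefSeq) was used after chromosome ends (0 models past them) and GT-AG ends were checked. Groups came from the labels.

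For each of 5186 annotated introns of at least 20 nt (42 shorter gaps left out), same-strand models were sorted into retaining, splicing, other-junction or not spanning. 10 protein-coding genes have 2 annotated mRNAs and hold 40 of the introns, which were numbered within their mRNA. Splice site scores are position weight sums in bits, log2 of base share over the share in all introns with 1 added to each count, over the last 3 exon and first 6 intron bases and over the last 12 intron bases and 1 exon base, with SDs of 2.34 and 1.49. Branch motifs were sought outside the first 6 and last 3 bases. The logistic fit (statsmodels 0.14.6, Python 3.11.15) used errors clustered by gene and Benjamini-Hochberg adjustment over 10 properties, and the scripts were tested on simulated data. Shares have exact Clopper-Pearson intervals (SciPy 1.17.1). Named introns were the 10 with most retaining models and the next 5 in WT, 1 intron per gene in both sets. Also named were the 5 with most retaining and no splicing models, all introns of 6 meiotic genes and the top 3 of each list. The 5 largest and 5 smallest differences between libraries were taken with at least 5 informative models in each. Where the text says so, introns were chosen after their values were seen. Members and lists were chosen with earlier results of these data known.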

Additional observations from a re-analysis of the deposited data

How the results depend on the processing

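The count of retained introns and the odds ratios were recomputed with other flanks and end tolerances, at least 2 retaining or at least 5 informative models, each library alone, coding introns only, models over 1 coding gene and retaining models that splice another intron, the odds ratios also without the term for the number of models and in a binomial fit of retaining models, and the shares per library in 2 ways. No odds ratio reversed. Of the recomputed odds ratios, 124 kept direction and side of the threshold, as did 13 added after seeing the data. The count of retained introns stayed within 1.5 times in 10 of its alternatives and in 1 added after seeing the data. The retained introns numbered 1614 in WT alone. Counting only retaining models that splice another intron gave 1.08 for first introns, and shares of 12.4% in the pool and 6.65% in WT, and the term for only introns could not be fitted there, nor the UTR term for coding introns only. Medians over introns were 15.4% in the pool and 0% in WT, at unlike depths. UTR introns passed at 1.68 with at least 2 retaining models, at 1.42 in the binomial fit, and at 2.88 for 3′ UTR introns alone in that fit, which was added after seeing the data. Open frame passed at 0.608 with at least 2 retaining models. The causes were not tested. No paired analysis was possible because each condition has 1 library.

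The number of models limits what can be called: an intron with few models cannot show rare retention, and reads per model are not used here. Many models span several introns, so introns of a gene are not independent. The libraries differ in depth, run, genotype and treatment at once, which cannot be told apart.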
